A study of Arabidopsis thaliana with 6 samples.

Results

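The transcript of ECT2 itself was followed through the site lists and input tables of an ECT2 RNA-binding study in Arabidopsis thaliana. ECT2 was taken by its locus identifier, AT3G13460, and is 1 of 33543 genes in the input tables and 1 of 26690 nuclear protein-coding genes used for comparison. RNA was collected by FA-CLIP, in which formaldehyde fixes proteins to RNA, RNase T1 trims the RNA after G, and the tagged protein is precipitated. The FA-CLIP group (2 libraries) came from Col-0 background plants labelled ECT2:ETC2-Flag/ect2 (the label spells the middle name ETC2), precipitated with anti-FLAG M2 magnetic beads. The mock group (2 libraries) came from wild-type Col-0 plants treated with the same beads. The input group (2 libraries) came from the same transgenic genotype without precipitation. All 6 libraries were from crosslinked 14-day-old seedlings, and the ect2 allele is the T-DNA line SALK_002225. The kit used for FA-CLIP and mock libraries was one for small RNA, and input libraries were made with the NEBNext Ultra RNA kit, so precipitates and input differ by kit too. Reads of the FLAG transgene and of the disrupted native gene cannot be told apart here. Which ECT2 isoform and untranslated regions (UTRs) the transgene carries is not given in the sources used here, and the level of ECT2 RNA in the wild-type mock plants was not measured. Nothing states that replicates came from separate plant cultures, so the spread between them may be technical.

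ECT2 belongs to the YTH-domain family, whose members hold N6-methyladenosine (m6A) in an aromatic pocket and thereby read this mark on mRNA. In plants, m6A lies mostly in 3′ UTRs, and ECT2 with its relatives ECT3 and ECT4 is known for roles in leaf and trichome development. m6A is set by a writer complex built around MTA and MTB and removed by ALKBH9B and ALKBH10B.

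Both FA-CLIP libraries listed many small sites along the ECT2 transcript, most of them in the coding sequence (CDS) and the 5′ UTR. FA-CLIP replicate 1 listed 21 sites with 86 conversion events, and replicate 2 listed 18 sites with 78 events, where an event count is the number the authors give for each site. Neither mock library listed an ECT2 site (0 and 0). Each FA-CLIP library therefore lay above both mock libraries, with a mean of 82 ± 5.66 events (SD, n = 2) in FA-CLIP. Since the smallest listed site has 2 events, absence from a mock list does not show that the RNA was missing from the mock.

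The mock lists were shallower. The FA-CLIP lists held 901178 and 830355 events in all, against 489805 and 653262 in the mock lists. Nuclear protein-coding genes took 54.6% and 66.0% of these events in FA-CLIP, against 6.23% and 5.56% in the mock. Leaf transcripts were abundant in the input, with RBCS1A at 5371 and 5560 FPKM. FPKM is a read level per transcript length and library size, inferred here as the unit of the input tables. The flower markers AP3 and PI and the seed storage gene CRA1 lay at or below 0.446 FPKM. The root hair marker COBL9 was at 0.574 and 0.812 FPKM. The leaf, flower and seed markers match a seedling, and the root hair marker was low, close to PI at 0.409 and 0.446 FPKM, so the presence of roots is not shown by it.

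Scaled to the library total, ECT2 took 95.4 and 93.9 of every 1000000 events in FA-CLIP, against 0 and 0 in the mock. The FA-CLIP values lay close together and the groups did not overlap. The difference of 94.7 events per 1000000 was larger than the spread between FA-CLIP replicates (SD 1.06, n = 2). The exact permutation test (two-sided) gave p = 0.33, the smallest value that 2 against 2 libraries allow. FA-CLIP lay above the mock in every pair of libraries for 34.2% of nuclear protein-coding genes, so ECT2 shared this with many genes. With events of nuclear protein-coding genes as the total, ECT2 took 174.8 and 142.3 of every 1000000 in FA-CLIP.

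**Figure D1:**
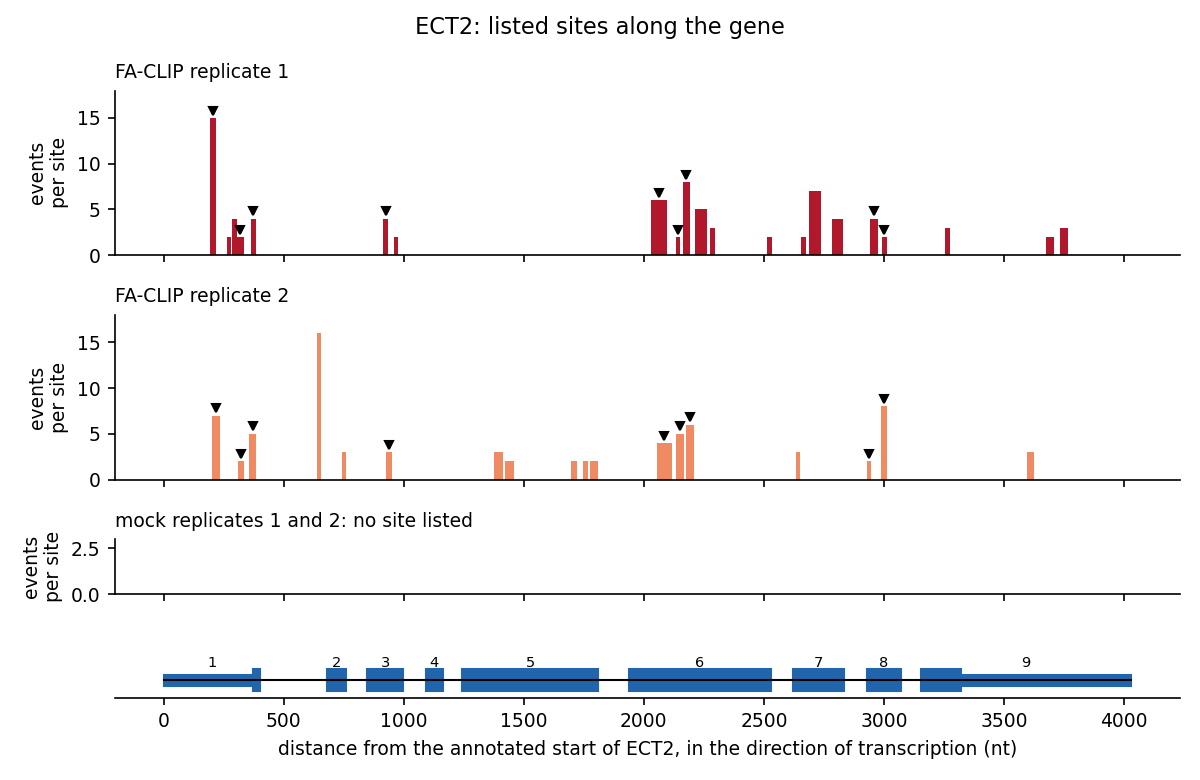
Conversion events per listed site (vertical axis) along ECT2 (horizontal axis, nt from the annotated start in the direction of transcription), with exons numbered 1 to 9, UTRs as thin boxes and CDS as thick boxes; triangles mark sites that overlap a site of the other FA-CLIP replicate. FA-CLIP replicates 1 and 2 list 21 and 18 scattered sites between the 5′ UTR and the 3′ UTR, and the mock libraries list none. The tallest are the 15-event site of the 5′ UTR and the 16-event site of intron 1.

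ECT2 lies on the minus strand at chr3:4384563-4388592 in TAIR10.1, which shares its nuclear coordinates with the TAIR10 build of the files. The annotation gives 4 isoforms. The longest coding isoform has 9 exons and 3087 nt, made of 372 nt of 5′ UTR, 2004 nt of CDS and 711 nt of 3′ UTR. Sites found in both FA-CLIP libraries by an overlap of at least 1 nt were joined, giving 8 reproducible sites. They are shown because the replicate-supported signal on ECT2 rests on them. The letters are the RefSeq TAIR10.1 reference of the transcribed strand, 5′ to 3′, with U written as T. Capitals mark the start codon in site 3. In the other sites they mark UGUA or the consensus of m6A sites, named DRACH (an A, G or U, then an A or G, then AC, then an A, C or U). For sites 1 to 3 the stretch shared by both libraries is printed, and for sites 4 to 8 the whole joined site. A match in the unprinted ends of sites 1 to 3 is therefore not marked, though the motif counts below include it.
site 1, 5′ UTR, chr3:4388375-4388391: ttctctcttctattcta
site 2, 5′ UTR, chr3:4388257-4388281: gtcgcatccccttttatccgagaag
site 3, start codon, chr3:4388208-4388229: tctcctctcATGgctaccgttg
site 4, CDS in exon 3, chr3:4387642-4387677: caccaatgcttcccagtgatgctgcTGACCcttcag
site 5, CDS in exon 6, chr3:4386477-4386561: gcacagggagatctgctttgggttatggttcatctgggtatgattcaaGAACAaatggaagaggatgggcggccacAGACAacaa
site 6, CDS in exon 6, chr3:4386383-4386460: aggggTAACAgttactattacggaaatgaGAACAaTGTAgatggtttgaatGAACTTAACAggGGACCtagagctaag
site 7, CDS in exon 8, chr3:4385616-4385664: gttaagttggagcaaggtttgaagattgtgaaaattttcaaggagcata
site 8, CDS in exon 8, chr3:4385580-4385606: cttgcattttggatgatttctcattct

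Site 1, whose shared stretch in the 5′ UTR is pyrimidine-rich, held 15 events in FA-CLIP replicate 1 and 7 in replicate 2. These events belong to the whole listed sites, of 24 nt in replicate 1 and 32 nt in replicate 2. Site 6, in the middle of the CDS, held 10 events in replicate 1 and 11 in replicate 2, from a pair of listed sites in each library. Site 5, just upstream of it, held 6 and 4 events. Sites 1 and 6 thus held the most events of the 8 in both replicates summed. Site 8, near the end of the CDS, held 2 events in replicate 1 and 8 in replicate 2. Site 3, which spans the start codon, held 4 and 5 events, and its midpoint fell in the CDS in replicate 1 and in the 5′ UTR in replicate 2. Site 4 held 4 and 3 events, site 7 held 4 and 2, and site 2 held 2 and 2. None of the 8 overlapped a mock site, and by midpoint on the longest isoform none lay in the 3′ UTR. The authors' labels, described below, put sites 7 and 8 in the 3′ UTR of a shorter isoform in both replicates. At an overlap of at least 50% of each site, a rule by which 25% of nuclear protein-coding genes had a reproducible site, 6 remained, without sites 4 and 7.

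A reproducible site was found in 31.5% of nuclear protein-coding genes and in 86.5% of the 2669 genes in the decile of input level that holds ECT2. Having one was therefore common at this level. Among genes with a reproducible site, 89.2% had no mock site, and ECT2 was among these. In the input decile of ECT2, 27% of genes had a mock site in either library.

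Most sites of ECT2 held few events. The median site held 3 events in FA-CLIP replicate 1 and 3 in replicate 2, against 4 and 4 over all listed FA-CLIP sites. In replicate 1, 16 of 21 sites held 2 to 4 events, and in replicate 2, 12 of 18 did. Each library had 1 site of 10 or more events. Widths had a median of 23 nt (range 15 to 66) in replicate 1 and 27 nt (range 17 to 61) in replicate 2. Together the sites covered 619 nt, or 20.05%, of the transcript in replicate 1 and 505 nt, or 16.4%, in replicate 2.

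The replicates had similar totals but shared only part of their sites. In all, 9 of 21 sites in replicate 1 (42.9%) and 9 of 18 in replicate 2 (50%) overlapped a site of the other library. The overlapping sites held 47 of 86 events (54.65%) in replicate 1 and 42 of 78 (53.85%) in replicate 2. Exon 5, which codes for part of the region upstream of the YTH domain, showed this most plainly, with 0 sites in replicate 1 and 5 sites (11 events) in replicate 2. The site with the most events in replicate 2 lay in intron 1 and had no counterpart in replicate 1 or in the mock. It is shown because 1 library decides the intron share of ECT2, and its capitals mark UGUA.
intron 1 site of FA-CLIP replicate 2, chr3:4387937-4387955: ttaattgTGTAattctttg

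By the midpoint of each site on the longest isoform, the CDS held 58 events (67.4%) in FA-CLIP replicate 1 and 45 (57.7%) in replicate 2. The 5′ UTR held 23 events (26.7%) and 14 (17.95%). The 3′ UTR held 5 events (5.81%) and 3 (3.85%). The intron held 0 events in replicate 1 and 16 (20.5%) in replicate 2, all from the site printed above. By midpoint the CDS was thus highest and the 3′ UTR lowest of the exonic regions in both libraries, whereas by the authors' labels, described below, the 5′ UTR was lowest in both. The mean shares were 62.6% ± 6.89 for the CDS, 22.35% ± 6.22 for the 5′ UTR and 4.83% ± 1.39 for the 3′ UTR (SD, n = 2), and each gap between neighbours in this order was larger than the spread.

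Per length, the 5′ UTR stood above the CDS. The 5′ UTR held 61.8 events per kb in FA-CLIP replicate 1 and 37.6 in replicate 2. In replicate 1, 15 of its 23 events came from 1 site. Its replicate 1 sites at chr3:4388289-4388305 (4 events) and chr3:4388312-4388326 (2 events) had sequences found more than once in the reference genome. In replicate 2, 5 of its 14 events came from site 3 at the start codon, which the authors labelled CDS. The CDS held 28.9 and 22.5 events per kb, and the 3′ UTR 7.03 and 4.22. By midpoint the 3 regions kept this order in both libraries, and their ranges did not overlap. By the authors' labels over the same lengths, replicate 1 held 61.8 events per kb in the 5′ UTR, 37.97 in the 3′ UTR and 17.96 in the CDS. Replicate 2 held 24.2, 18.3 and 19.96. The lengths are those of the longest isoform. Of the events labelled 3′ UTR, 22 of 27 in replicate 1 and 10 of 13 in replicate 2 were listed for a shorter isoform alone. Its CDS is shorter, so label and length do not match, and these values do not order the CDS and 3′ UTR. By count and not per length, exon 6 (594 nt) held the most CDS events in replicate 1 (26 in 6 sites) and replicate 2 (15 in 3 sites). Exon 7 (213 nt) held 13 and 3 events, and exon 8 (141 nt) held 6 and 10. Per length, exon 7 in replicate 1 and exon 8 in replicate 2 thus stood above exon 6. Exon 4, the shortest at 71 nt, held 0 in both. Exon 9, which carries the stop codon and the 3′ UTR, held 8 events in replicate 1 and 3 in replicate 2 over its 876 nt.

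The 3′ UTR is the region where m6A is usually found in plant mRNA. Since the UTRs of the transgene are not known, how much ECT2 RNA carried the annotated 3′ UTR was not tested. By midpoint on the longest isoform, that of ECT2 held 2 sites in replicate 1 and 1 in replicate 2, and none overlapped. They were at chr3:4384886-4384918 with 2 events and chr3:4384828-4384861 with 3 events in replicate 1, and at chr3:4384969-4384996 with 3 events in replicate 2. The neighbouring gene DIN4 (AT3G13450), which encodes a subunit of branched-chain keto acid dehydrogenase, listed 1 site of 2 events 390 nt from ECT2, in replicate 1. No ECT2 site was shared with another gene.

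The authors' own location labels gave a higher 3′ UTR share, from sites listed for a shorter isoform. Their label put 27 events (31.4%) of replicate 1 and 13 (16.7%) of replicate 2 in the 3′ UTR, a mean of 24.0% ± 10.4 (SD, n = 2). The 5′ UTR held 26.7% and 11.5% by these labels, below the 3′ UTR in both libraries, and the CDS, with 41.9% and 51.3%, stayed highest. Of these sites, 6 (22 events) in replicate 1 and 2 (10 events) in replicate 2 were listed for isoform AT3G13460.3 alone. That isoform has a shorter CDS of 1527 nt, and all of these sites lay in the CDS of the longest isoform. Over all genes, 584 sites of replicate 1 and 474 of replicate 2 were CDS in one isoform and 3′ UTR in another. The authors labelled 401 (68.7%) and 353 (74.5%) of them 3′ UTR. Which isoform the seedlings made was not measured.

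Among the 2113 genes with at least 5 sites in both FA-CLIP libraries, the 3′ UTR share of ECT2 (4.83%) ranked 2060 from the top, against a median of 85.3%. Its CDS share (62.6%) ranked 23, against a median of 10.95%, and its 5′ UTR share (22.35%) ranked 20, against a median of 0.243%. More CDS than 3′ UTR events were seen in 102 of these genes (4.83%), ECT2 included. Of the 53 genes below ECT2 in 3′ UTR share, 23 have no annotated 3′ UTR. With the authors' labels for all genes, ECT2 had 24.0% against a median of 87.8%, and ranked 2098. Among the 184 of these genes with a CDS at least as long as that of ECT2, it ranked 177 in 3′ UTR share (median 81.0%) and 3 in CDS share (median 15.3%). Since ECT2 is 1 gene, these ranks are a description and no test was made. They also take the annotated UTRs for ECT2, while those of the transgene are not known.

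**Figure D2:**
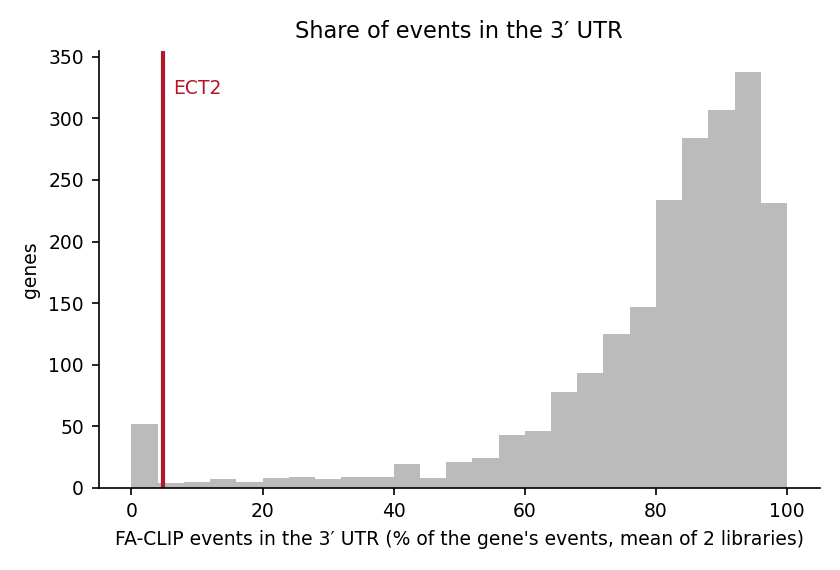
Number of genes (vertical axis) by the share of their FA-CLIP events in the 3′ UTR (horizontal axis, %, mean of 2 libraries), for the 2113 genes with at least 5 sites in both libraries; the line marks ECT2. Most genes lie to the right, with a median of 85.3%, and ECT2 lies at 4.83%.

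ECT2 ranked higher by number of sites than by events. Its 21 sites in FA-CLIP replicate 1 ranked 49 among 10430 genes with a site (median 3), and its 18 sites in replicate 2 ranked 62 among 10900 (median 3). Its 86 events ranked 1108 in replicate 1 (median 12) and its 78 events ranked 1412 in replicate 2 (median 13). It had 4.10 and 4.33 events per site, close to the medians of all listed genes, 4.33 and 5. In its input decile, its mean of 19.5 sites ranked 53 of 2669 genes (median 6), while its mean of 82 events stood at the 58.4 percentile (median 62).

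Only 125 nuclear protein-coding genes (0.468%) had at least 15 sites in both FA-CLIP libraries, a bound set after the values of ECT2 had been seen. Among them ECT2 had the fewest events, 82 against a median of 382.5, and the fewest events per site, 4.21 against 19.3. Its share of sites that overlapped between replicates, 46.4%, was the lowest, against a median of 80.8%. Its input level ranked 101 of 125 (median 164.8 FPKM) and its transcript length ranked 10 (median 1752 nt). No mock site was listed for 29 of the 125 genes (23.2%), ECT2 among them. CAB3, which encodes a light-harvesting protein, had the only higher CDS share in this group, 72.6%.

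**Figure D3:**
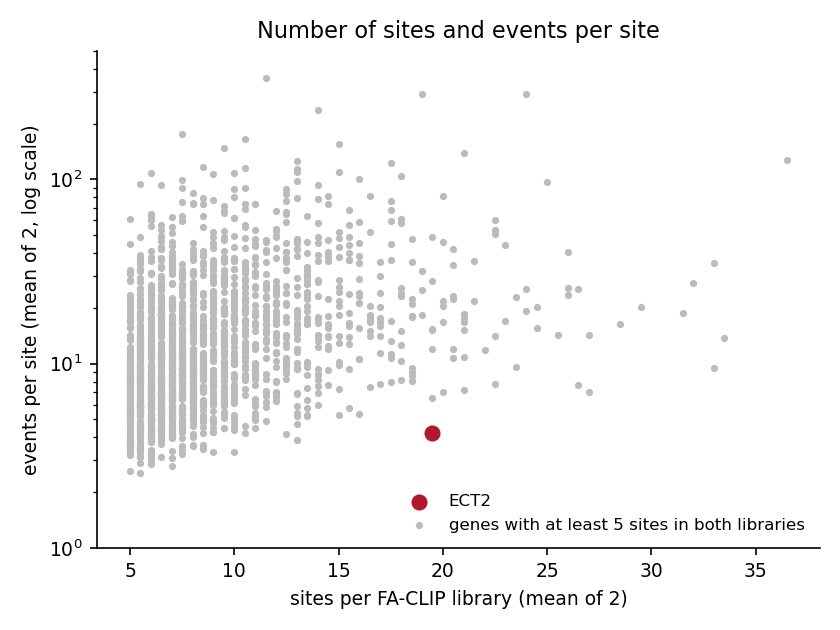
Events per site (vertical axis, log scale) against the number of sites per FA-CLIP library (horizontal axis), both as means of 2 libraries, for the 2113 genes with at least 5 sites in both. ECT2, at 19.5 sites and 4.21 events per site, lies at the lower edge of genes with as many sites.

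In the input, ECT2 had 72.15 FPKM in replicate 1 and 74.9 FPKM in replicate 2, a mean of 73.5 ± 1.96 FPKM (SD, n = 2). It ranked 819 and 727 among 26690 genes, at the 97.1 percentile of the mean, and the median gene was at 2.65 FPKM. The read depth behind these values is unknown. A single gene, AT2G01021, took 33.4% and 57.5% of the summed FPKM. With it left out, ECT2 took 131.1 and 146.2 of every 1000000 of the remaining FPKM, against 87.3 and 62.2 with it in, so the order of the input replicates depends on that gene.

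Set against its input, the place of ECT2 among genes depended on how recovery was scored. The recovery score is the log2 of mean FA-CLIP events plus 1, divided by the product of mean input FPKM and transcript kb, and it was computed for the 16960 genes of 1 FPKM or more. ECT2 scored -1.45 on this log2 scale, against a median of -0.94, which is the 38.3 percentile. Without the division by length it stood at the 58.8 percentile, on the other side of the median, and with 5 in place of 1 added to the events it stood at the 11 percentile. Among the 8321 such genes with a reproducible site, whose median was 0.15, it stood at the 11.7 percentile. Among genes of its input decile it stood at the 30.1 percentile. Events and FPKM came from different library kits, so the score orders genes and measures no binding strength.

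**Figure D4:**
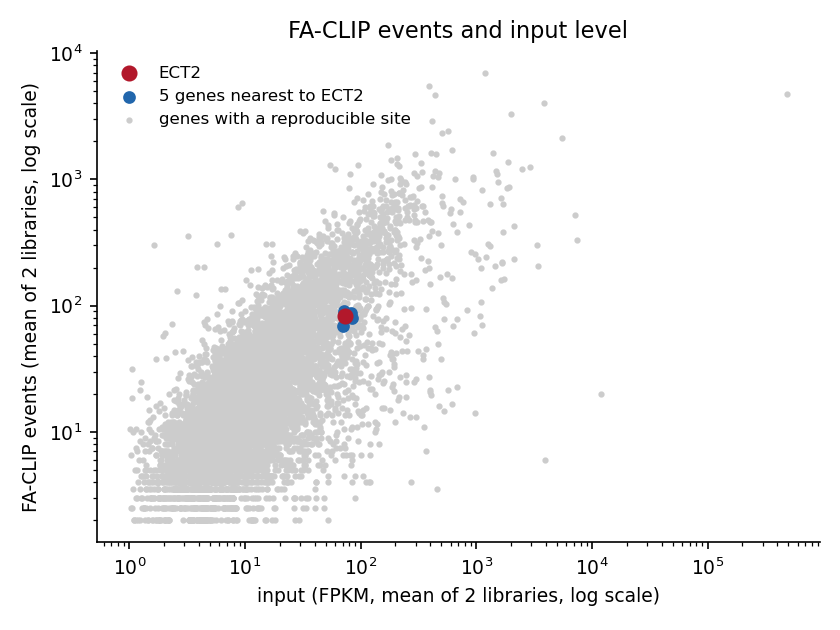
FA-CLIP events per gene (vertical axis, log scale) against input level (horizontal axis, FPKM, log scale), as means of 2 libraries, for genes with a reproducible site; the 5 genes nearest to ECT2 over all 6 libraries are marked. ECT2, at 82 events and 73.5 FPKM, stands at the 11.7 percentile of recovery among genes with a reproducible site.

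Sequence motifs in the 8 reproducible ECT2 sites were counted in windows of 31 nt around the midpoint, on the transcribed strand alone and with overlapping matches allowed. UGUA was found in 1 of 8 ECT2 windows (12.5%), against 21.8% of 20517 reproducible sites of nuclear protein-coding genes. DRACH was found in 4 of 8 (50%), against 42.2% of all. Part of the UGUA background comes from 3′ UTR sites, of which 26.4% held it, while 9.37% of CDS sites did. Against CDS sites, 45.7% of which held DRACH, the ECT2 counts of 1 and 4 were also near the background. UGUAU (8.03% of all sites, 2.7% of CDS sites), UGUAC (3.30%, 2.24%), UGUAA (7.98%, 2.26%) and UUUUU (14.3%, 1.97%) were in 0 of 8 windows. GGAU was found in 1 of 8, against 8.93% of all sites and 12.3% of CDS sites. With whole sites extended by 25 nt on each side it was in 5 of 8 (62.5%), against 28.9% of all. With the same extension UUUUU was in 2 of 8 (25%, against 37.3%), DRACH in 6 of 8 (75%, against 83.5%) and UGUA in 1 of 8 (against 53.3%). Over whole sites GGAU was in 2 of 8 (25%, against 15.3%), DRACH in 4 of 8 (against 58.85%) and UGUA in 1 of 8 (against 33.2%). With 8 sites such counts move by 12.5 points for each site.

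Site 6 held 5 DRACH matches in 78 nt, a pair of them adjoining, and the UGUA match. Windows of 78 nt around all 20517 reproducible sites held a median of 1, and 157 of them (0.765%) held as many as site 6. This site was singled out after its sequence had been seen. A match is a stretch of letters and no measured m6A. Over all listed ECT2 sites the libraries differed, with UGUA in 3 of 21 sites (14.3%) and DRACH in 8 of 21 (38.1%) in replicate 1, and UGUA in 2 of 18 (11.1%) and DRACH in 11 of 18 (61.1%) in replicate 2. The corresponding shares of all listed sites of nuclear protein-coding genes were 19.0% and 41.4% in replicate 1 and 22.0% and 41.95% in replicate 2. UUUUU was in 5 of 21 ECT2 sites (23.8%, against 12.4% of all) in replicate 1 and in 0 of 18 (against 13.6%) in replicate 2. GGAU was in 2 of 21 (9.52%, against 9.86%) in replicate 1 and in 4 of 18 (22.2%, against 8.93%) in replicate 2.

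ECT2 and the 12 other YTH-domain genes made a list of 13, all present in the tables. A reproducible site was found in ECT2 and in 8 of the 12 others (31.5% of nuclear protein-coding genes had one), and 0 of the 13 had a mock site (4.11% did). ECT2 had the highest input level, 72.15 and 74.9 FPKM, followed by ECT3 with 22.8 and 22.3 FPKM. The input ranges of ECT2 and ECT3 did not overlap. Input came from the transgenic genotype, so the ECT2 level may include transgene RNA, and its native level was not measured. The median of the 13 was 6.12 FPKM.

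Per kb of transcript, ECT2 held 27.9 events in FA-CLIP replicate 1 and 25.3 in replicate 2. ECT1 held 21.2 and 27.0 events per kb at only 7.35 and 6.89 FPKM of input. The ranges of ECT2 and ECT1 overlapped, so these neighbours did not differ beyond their spread. The recovery score of ECT2 stood at the 38.3 percentile and that of ECT1 at the 95.4 percentile. ECT3, which acts redundantly with ECT2 in leaf development, followed with 5.62 and 11.2 events per kb. ECT7 held 4.99 and 2.33, ECT5 3.97 and 4.77, and ECT4, the other close partner of ECT2, 0.801 and 3.20. ECT6, ECT8, ECT11 and CPSF30, a polyadenylation factor with a YTH-domain isoform, lay between 1.13 and 1.88. ECT9, ECT10 and AT4G11970 were listed at 0 events in both FA-CLIP libraries.

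ECT2 and the other YTH-domain genes had their events in different regions. ECT2 had 5.81% and 3.85% of its events in the 3′ UTR. For ECT2 alone, part of the RNA may come from the transgene, whose UTRs are not known. ECT1 had 100% and 96.1% there, ECT3 75% and 100%, and ECT7 86.7% and 100%. All 8 other members with a reproducible site had more 3′ UTR than CDS events, as did 93.5% of all genes with a reproducible site, and ECT2 had more CDS than 3′ UTR events. Most of these genes had few sites, with 3 reproducible sites in ECT1, 2 each in ECT3, ECT5 and ECT7, and 1 each in ECT6, ECT8, ECT11 and CPSF30, against 8 in ECT2.

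**Figure D5:**
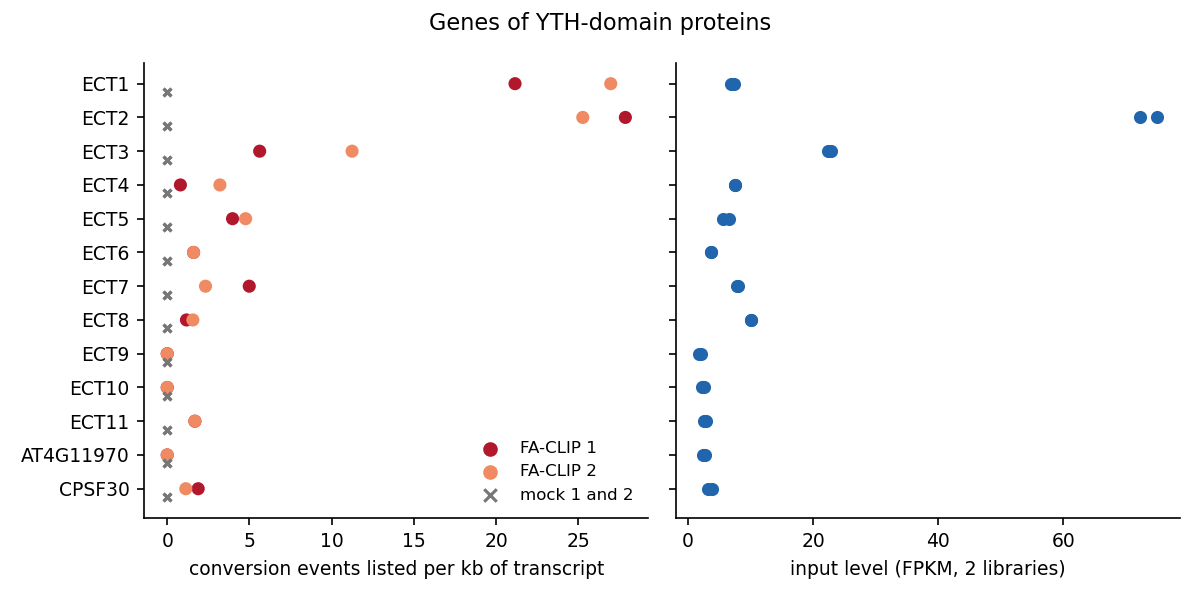
FA-CLIP and mock events per kb of transcript (left) and input level in FPKM (right) for the 13 YTH-domain genes, 1 point per library. ECT2 and ECT1 have the most events per kb, 27.9 and 25.3 against 21.2 and 27.0, at inputs of 72.15 and 74.9 against 7.35 and 6.89 FPKM, and all mock values are 0.

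The 5 genes nearest to ECT2 over the 6 libraries were found by Euclidean distance of log2 events per 1000000 plus 1 and log2 FPKM plus 1, among 9270 genes with a site in both FA-CLIP libraries. They were PDH-E1 ALPHA (distance 0.2475), PCAP1 (0.277), GGP1 (0.324), AT2G34250 (0.386) and AT1G74730 (0.412), against a median distance of 5.53. None had mock events. PDH-E1 ALPHA, a subunit of pyruvate dehydrogenase, had 80 and 91 events in 11 and 10 sites, with 71.3 and 72.7 FPKM of input. PCAP1, a membrane-associated cation-binding protein, had 92 and 82 events in only 5 and 6 sites. These levels were close to those of ECT2, which chose them. The share of events in the 3′ UTR was higher in each of the 5 genes in both libraries. Unlike these genes, ECT2 was expressed with a transgene of unknown UTRs. The 3′ UTR held 5.81% and 3.85% of the events in ECT2, against 56.25% and 78.0% in PDH-E1 ALPHA, 96.7% and 100% in PCAP1, 81.2% and 85.5% in GGP1, 80% and 98% in AT2G34250, and 80.6% and 74.65% in AT1G74730.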

How the data were processed

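The members and gene lists were chosen with earlier results of these data known. Site lists hold counts of conversion events per site, deposited by the authors per library, at least 2 per site and unscaled. The deposited input tables hold values taken as FPKM from the header layout and the values. The submitters' processing notes name cutadapt, Bowtie (no versions) and TAIR10. Site caller, counter and annotation: not given in the sources used here. Sites listed under more than 1 transcript counted once. They were joined on the same strand at an overlap of at least 1 nt and placed by midpoint on the isoform with the longest CDS (RefSeq TAIR10.1, where all 39 ECT2 sites lay in the gene). Sites were called per library, so no count model was fitted. Named genes are ECT2, the YTH-domain list, the 5 genes nearest to ECT2 over 6 libraries and neighbours with a site within 1 kb. The m6A writers and erasers were a second list, and CAB3 was named after its value was seen. Python 3.11.15, numpy 2.4.6, scipy 1.17.1 and matplotlib 3.10.9 were used. On simulated data, 2000 of 2000 planted shared sites and 8667 of 8667 region labels were recovered. Alternatives changed the overlap, site threshold, library total, region labels, pseudocount, length and filter of the score, and left out each library. The regional percentile and its alternatives were added after seeing the data.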

Additional observations from a re-analysis of the deposited data

How the results depend on the processing

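Replicate numbers are shared between FA-CLIP and mock, and nothing says that they pair the plants. With the number as a replicate block, an alternative chosen after seeing the data, the FA-CLIP minus mock difference was 94.7 ± 1.06 events per 1000000 (SD of 2 differences, exact sign-flip permutation p = 0.5, the smallest that 2 pairs allow). The FA-CLIP minus mock difference lay between 51.05 and 158.5 events per 1000000 in its alternatives, at p = 0.33 in each (exact permutation test). Sites above the library's median event count numbered 5.5 per library, against 19.5 with all sites, and 2 of the 8 reproducible sites were then found. Counted once per listed transcript, sites numbered 66. The 3′ UTR share of events was 24.0% by the authors' labels and 7.54% as a share of sites. The percentile of ECT2 in 3′ UTR share was 2.51, and 0.710 by the authors' labels. Without each FA-CLIP replicate it was 2.46 and 2.75. The input percentile was 96.8 among genes above 0 FPKM. The recovery percentile, 38.3, was 46.7 with a pseudocount of 0.5 and 11 with one of 5. It was 58.8, above the median gene, without length, 27.6 with all genes above 0 FPKM and 33.0 with reproducible sites alone, and it ranged from 37.6 to 44.5 as each library was left out. A pseudocount weighs most, in proportion, on genes with few events, but the cause of these shifts was not tested. Counts of 2 to 16 events per site limit what can be said of a single site.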

Other observations

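Of 7 genes that set or remove m6A, 2 had a reproducible site, near the 31.5% of nuclear protein-coding genes that had one, and 0 had a mock site. Their median input was 4.06 FPKM. VIR, a part of the writer complex, had 4 and 9 events in FA-CLIP, and HAKAI, an E3 ligase of that complex, had 7 and 8. MTA, MTB, FIP37, ALKBH9B and ALKBH10B were listed at 0 events in both FA-CLIP libraries.

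RNase T1 cuts after G. The last base was G in 7 of 21 ECT2 sites (33.3%) of FA-CLIP replicate 1 and 10 of 18 (55.6%) of replicate 2. Among all listed sites of nuclear protein-coding genes, the set compared here, it was G in 26.3% and 23.9%. The base before the site was G in 3 of 21 (14.3%) and 5 of 18 (27.8%) ECT2 sites, against 24.1% and 19.9% of that set. U made up 33.7% and 28.05% of the bases in ECT2 sites, against 37.6% and 38.4% in that set.

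The sequence of 19 of 21 ECT2 sites in replicate 1 and of 18 of 18 in replicate 2 occurred once in the reference genome. The other two lay in the 5′ UTR, at chr3:4388289-4388305 (4 events) with 348 occurrences and at chr3:4388312-4388326 (2 events) with 2, so reads of these sites could have come from other places.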
